A study of Mus musculus with 24 samples.

Results

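The Period genes Per1, Per2 and Per3 and the cryptochrome genes Cry1 and Cry2 encode the repressors of the circadian clock, and their transcripts were followed over the day in livers with and without an intact floxed Mop3 gene. Every probe that the array files name Per1, Per2, Per3, Cry1 or Cry2 was taken, which gave 5 of the 27745 gene names and 8 of the 41174 probes on the array. Per1 and Per3 had 1 probe each, and Per2, Cry1 and Cry2 had 2 each. All 8 passed the filter on dim probes, which left 27847 probes in the tests.

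The study, whose title concerns the hepatocyte clock and acetaminophen toxicity, compared 2 genotypes of C57Bl/6J mice. Both groups carried the floxed Mop3 allele (Mop3fxfx), and Mop3fxfxCreAlb mice also carried Cre recombinase under the albumin promoter, which acts in hepatocytes. Arntl, the current symbol of Mop3, is also known as Bmal1 and encodes a transcription factor of the clock. A group with Cre and no floxed allele was not analysed here, so an effect of Cre alone cannot be told apart from the loss of Arntl. Mice lived under 12 h of light and 12 h of darkness with food at all times, and livers were taken at ZT0 (lights on), ZT4, ZT8, ZT12, ZT16 and ZT20, at 10 and at 20 weeks of age. Each genotype, age and time had 1 array, which gave 24 arrays and 12 per genotype, and each array carried pooled RNA of at least 3 mice. Every sample was hybridised beside a reference that the labels describe as a pool of 10-week liver RNA of both genotypes. P-values therefore measure the spread between pools around the fitted curve, mostly between the ages, and not the spread between mice.

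In the clock loop, ARNTL and CLOCK bind E-box sequences and switch on Per and Cry genes, and PER and CRY proteins assemble and block ARNTL and CLOCK. The REV-ERB receptors (Nr1d1, Nr1d2) belong to a second loop that acts on Arntl and also on Cry1, while the factors DBP, TEF and HLF act through D-box sequences. Per1 and Per2 are also known to respond to systemic cues such as glucocorticoids, cAMP signals, temperature and feeding, which reach the liver without its own clock.

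Sequences upstream of the transcription start are shown because Cry1 peaked at another time than Per1 and Per3 and because the fitted amplitudes in Cre livers ranged from that of Per1 to nearly flat for Cry1 probe 2. They come from RefSeq on GRCm38.p6, cover the 250 bases before the annotated start, and read 5′ to 3′ on the strand of the gene. A window was found for 4 of the 5 genes, and Per2 is named only. Capitals mark the E-box CACGTG and the D-box TTATGTAA, and also TGACG, the core of the cAMP response element. Each was searched on both strands, so a match on the other strand is printed as its reverse complement. The Per1 window lies at chr11:69098699-69098948 on the plus strand, the Per3 window at chr4:151044666-151044915 on the minus strand, the Cry1 window at chr10:85185055-85185304 on the minus strand and the Cry2 window at chr2:92434070-92434319 on the minus strand.
Per1 upstream: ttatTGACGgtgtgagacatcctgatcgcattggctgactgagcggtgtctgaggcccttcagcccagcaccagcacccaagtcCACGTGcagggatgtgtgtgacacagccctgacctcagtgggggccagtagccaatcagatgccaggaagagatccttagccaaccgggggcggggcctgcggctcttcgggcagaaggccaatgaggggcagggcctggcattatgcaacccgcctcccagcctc
Per3 upstream: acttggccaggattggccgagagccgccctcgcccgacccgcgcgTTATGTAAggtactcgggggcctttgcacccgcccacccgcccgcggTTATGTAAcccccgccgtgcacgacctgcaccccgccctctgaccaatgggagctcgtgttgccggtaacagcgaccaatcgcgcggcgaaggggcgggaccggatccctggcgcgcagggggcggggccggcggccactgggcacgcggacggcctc
Cry1 upstream: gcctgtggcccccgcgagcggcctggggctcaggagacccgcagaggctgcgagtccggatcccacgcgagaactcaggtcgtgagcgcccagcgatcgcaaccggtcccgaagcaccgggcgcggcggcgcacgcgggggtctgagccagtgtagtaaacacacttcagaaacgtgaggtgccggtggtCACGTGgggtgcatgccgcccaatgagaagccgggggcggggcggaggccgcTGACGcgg
Cry2 upstream: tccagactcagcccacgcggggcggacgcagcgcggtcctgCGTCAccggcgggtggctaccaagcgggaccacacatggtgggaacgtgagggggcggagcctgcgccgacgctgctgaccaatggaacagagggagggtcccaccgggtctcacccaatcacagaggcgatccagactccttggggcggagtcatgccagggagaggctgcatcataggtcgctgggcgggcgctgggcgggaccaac
The Per1 window held CACGTG from 166 bases before the start and the Cry1 window held it from 60 bases before the start. Of the 32851 RefSeq windows of this length, 6.02% held this sequence. Not in capitals is the E-box variant CACGTT, which reads AACGTG on the other strand. It was in the Cry1 window from 79 and in the Cry2 window from 166 bases before the start, and in 3.85% of all windows. The core of the ROR element, AGGTCA or TGACCT on the other strand, was in the Per1 window from 137 bases before the start. None of the other windows printed here held that core, and 14.0% of all windows did. The Per3 window held TTATGTAA at 2 places, from 205 and from 158 bases before the start, where 0.819% of all windows held it at least once. TGACG or its reverse complement, CGTCA, was in the windows of Per1, Cry1 and Cry2, and in 17.8% of all windows. A second annotated start of Per1, whose window lies at chr11:69099902-69100151 on the plus strand, had TGACG and no CACGTG. These matches are letters in a window and not binding measured here.

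The probes are 60 bases long. Those of Per2 probe 2 and Cry1 probe 2 are printed because the first disagreed with the other Per2 probe and the second gave the smallest p-values, and the capitals rule above does not apply to them.
Per2 probe 2: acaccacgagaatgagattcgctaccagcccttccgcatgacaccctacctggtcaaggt
Cry1 probe 2: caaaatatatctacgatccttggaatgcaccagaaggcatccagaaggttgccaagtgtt

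All levels are log2 ratios of Cy5 over Cy3 on 1 array, with Cy5 taken to be the liver sample and Cy3 the reference. The labels give the dyes the other way round. On 6 slides with several arrays, Cy5 was the more variable dye for 87.5 to 93.6% of all probes. The daily cycles of Per1, Per2 probe 1 and both Cry1 probes were in Cy5. Cry2 probe 2 had an amplitude of 0.04 in each dye in Mop3fxfx livers. In Mop3fxfx livers the amplitude of Per1 was 1.11 ± 0.18 (SE, n = 12) in Cy5 and 0.03 ± 0.07 in Cy3, and that of Cry1 probe 1 was 0.90 ± 0.12 in Cy5 and 0.04 ± 0.08 in Cy3. With the dyes of the labels, all log ratios and level differences change sign and peaks shift by 12 h, whereas amplitudes, p-values and total counts are unaffected. Across all probes, no 2 arrays correlated below -0.26. The level of one probe is not set against the level of another.

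Arntl, the targeted gene, was rhythmic in Mop3fxfx livers and nearly flat in Mop3fxfxCreAlb livers. From ZT0 to ZT20 its log2 ratio was 1.10, 0.49, -2.18, -1.51, 0.24 and 1.13 in 10-week Mop3fxfx livers and 1.60, 0.86, -1.72, -0.96, 0.98 and 1.52 at 20 weeks. In Mop3fxfxCreAlb livers it was -0.49, -0.24, -0.42, -0.43, -0.52 and -0.28 at 10 weeks and 0.52, -0.29, -0.49, -0.59, -0.47 and -0.90 at 20 weeks. At ZT16 and ZT20 every Cre value lay below every floxed value, while at ZT8 and ZT12 the Cre values were the higher ones. The mean differed by -0.51 ± 0.17 (Cre minus floxed, limma, adjusted p = 0.035), and the rhythm differed (adjusted p = 0.031). Whether the probe lies in the deleted part of the gene was not analysed here, and RNA of cells without Cre is also in these livers. All 7 hepatocyte markers were measured and none differed between genotypes, but 6 of them were saturated on at least 12 arrays. In a bulk liver, fewer cells of a type and less RNA per cell cannot be told apart. Of the markers of other cells, 2 of 6 for stellate cells, 2 of 5 for cholangiocytes and 1 of 6 for sinusoidal endothelium were higher in Cre livers. None was lower. No call was made among the 6 for macrophages, 5 for lymphocytes, 3 for adipose cells and 1 tested of 3 for pancreas. Among all probes, 10.6% were called higher in Cre livers and 11.1% lower. The part of these other cells in the results below was not tested.

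Per1, an early and cue-responsive repressor of the loop, was highest around dusk in both genotypes, and its rhythm was called in Mop3fxfx livers only, a difference that was itself not called. From ZT0 to ZT20 it was -0.82, -1.63, 0.64, 0.63, 0.30 and -0.16 in 10-week Mop3fxfx livers and -2.04, -1.49, -0.20, -0.17, -0.59 and -1.59 at 20 weeks. In Mop3fxfxCreAlb livers it was -0.02, -1.14, 0.53, 0.69, -0.22 and -0.26 at 10 weeks and -1.59, -1.06, -0.01, 0.51, -0.04 and -0.99 at 20 weeks. ZT4 was low and ZT8 and ZT12 were high in both genotypes at both ages, and the ranges of the genotypes overlapped. The amplitude of a fitted 24 h cosine, from mean to peak, was 0.98 ± 0.17 (SE) in Mop3fxfx livers with a peak at ZT12.4 ± 0.67 h, which is 3.88-fold from trough to peak, and this rhythm was called (adjusted p = 0.01 over all probes). In Mop3fxfxCreAlb livers it was 0.78 ± 0.17 with a peak at ZT12.1 ± 0.84 h, or 2.94-fold, with an unadjusted p of 0.00084 and an adjusted p of 0.21. Leaving out 1 array at a time moved the latter between 0.085 and 0.64.

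Per1 at 20 weeks had close fitted amplitudes and peaks in the 2 genotypes, at a higher mean in Cre livers. Fitted on those arrays alone, with 6 per genotype, the amplitude was 1.01 ± 0.07 in Mop3fxfx (peak ZT11.5, adjusted p = 0.011) and 1.04 ± 0.07 in Mop3fxfxCreAlb (peak ZT12.0, adjusted p = 0.029). The Cre arrays of ZT0 and ZT4 were on slide 5 and those of the later times on slide 6. All floxed arrays of this age were on slides 4 and 5. The Cy3 signal of Per1 was 9.76 ± 0.14 (SD, n = 8) on slides 4 and 5 and 9.31 ± 0.05 (n = 4) on slide 6. Time of day, genotype and slide can therefore not be fully told apart at 20 weeks. At 10 weeks the amplitudes were 0.996 ± 0.31 and 0.52 ± 0.31, and neither was called. Over all arrays the amplitude differed by -0.20 (Cre minus floxed, 95% interval -0.70 to 0.31) and the peak by -0.24 h (-2.48 to 2.003), and the interval holds both no change and a loss of most of the amplitude. Without both 20-week ZT0 arrays the Per1 rhythm in Mop3fxfx was no longer called (amplitude 0.94, adjusted p = 0.058). With the scan date as a block the Cre rhythm was called (amplitude 0.92, adjusted p = 0.044).

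Per2, a scaffold of the repressor complex, cycled in Mop3fxfx livers by its brighter probe, called Per2 probe 1 here. It was -0.57, -1.61, -0.14, 1.04, 0.89 and -0.46 from ZT0 to ZT20 in 10-week Mop3fxfx livers and -0.28, -0.03, 1.12, 1.16, 0.61 and 0.23 at 20 weeks. In Mop3fxfxCreAlb livers it was 0.14, -0.21, -0.07, 0.39, 0.48 and 0.01 at 10 weeks and 0.72, 0.00, 0.30, 0.92, 0.39 and 0.56 at 20 weeks. Cre values lay inside the floxed range and spanned 1.13 log2 units, against 2.77 in floxed livers. The amplitude was 0.91 ± 0.14 in Mop3fxfx livers with a peak at ZT13.2 ± 0.59 h (adjusted p = 0.0034) and 0.25 ± 0.14 in Cre livers (adjusted p = 0.83). The amplitude difference, Cre minus floxed, was -0.67 (95% interval -1.08 to -0.25, not adjusted for the number of probes). The joint test of the rhythm difference gave an unadjusted p of 0.0053 and an adjusted p of 1, so the difference was not called.

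Per2 probe 2 did not follow probe 1. Its values lay between -0.30 and 0.32 on 21 of the 24 arrays, and the others were the 20-week ZT0 arrays of both genotypes (2.52 in Mop3fxfx and 2.34 in Mop3fxfxCreAlb) and the 20-week ZT4 array of Mop3fxfx (1.16). These high values are in Cy5, at 10.998, 10.4 and 9.08 on the log2 scale, and the 2 Per2 probes correlated at r = -0.07 over the 24 arrays. Its rhythm was called in neither genotype (amplitude 0.57 ± 0.24 and 0.42 ± 0.24, adjusted p = 0.49 and 0.82). On the same 20-week ZT0 arrays Per2 probe 1 was -0.28 and 0.72. The probes also disagreed at 10 weeks, where the Mop3fxfx amplitude was 1.19 ± 0.18 by probe 1 and 0.05 ± 0.09 by probe 2. Statements on Per2 rest on probe 1, and why the probes disagree was not tested.

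Per3, the Period gene held least necessary for the core loop, was dim, with Cy5 well above background on 13 of 24 arrays. Its values ran from -0.37 to 0.75 with a median of -0.06 in Mop3fxfx livers and from -0.50 to 0.13 with a median of -0.03 in Cre livers. The high floxed values were those of 10 weeks at ZT8 (0.55) and ZT12 (0.75). The amplitude was 0.33 ± 0.07 with a peak at ZT11.2 ± 0.86 h in Mop3fxfx livers, just short of a call (adjusted p = 0.063), and 0.15 ± 0.07 in Cre livers (adjusted p = 0.73). Per3 was called in Mop3fxfx livers under 6 of 17 other settings, among them Cy5 alone (amplitude 0.33, adjusted p = 0.0092). On the scanner software's log ratio its amplitude was 1.18 in Mop3fxfx (adjusted p = 0.032) and 0.88 in Cre livers (0.43), over 3 times the values above.

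Cry1, the late repressor of ARNTL and CLOCK, cycled by both probes in Mop3fxfx livers. In Mop3fxfxCreAlb livers probe 2 lay near the top of that cycle at all times. Probe 1 lay above every floxed value of the same age at 10 weeks. At 20 weeks it ran from -0.24 at ZT8 to 1.23 at ZT0, where floxed values ran from -1.19 to 0.62. Cry1 probe 2 was -0.48, -1.14, -1.71, -0.93, -0.31 and 0.26 from ZT0 to ZT20 in 10-week Mop3fxfx livers and -0.36, -0.92, -1.10, -0.67, 0.15 and 0.15 at 20 weeks. In Mop3fxfxCreAlb livers it was 0.08, 0.38, 0.73, 0.36, -0.07 and 0.72 at 10 weeks and 0.29, 0.03, -0.10, 0.11, 0.20 and 0.23 at 20 weeks. From ZT0 to ZT12 the 8 floxed values (-1.71 to -0.36) lay below the 8 Cre values (-0.10 to 0.73), and at ZT16 and ZT20 the genotypes overlapped. Cry1 probe 1 ran from -2.77 to 0.62 with a median of -0.52 in Mop3fxfx livers and from -0.24 to 1.23 with a median of 0.31 in Cre livers. Its lowest floxed value was again 10 weeks ZT8, its highest Cre value was 20 weeks ZT0, and the genotypes overlapped.

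The Cry1 amplitude in Mop3fxfx livers was 1.01 ± 0.17 by probe 1 and 0.78 ± 0.10 by probe 2, both with a peak at ZT19.2 (adjusted p = 0.0065 and 0.0007). In Cre livers it was 0.28 ± 0.17 and 0.04 ± 0.10 (adjusted p = 0.85 and 0.99). The Cre amplitude of probe 1 was 0.07 ± 0.17 at 10 weeks and 0.52 ± 0.15 at 20 weeks (unadjusted p = 0.91 and 0.021, adjusted p = 1 and 0.23), and over all ages it ran from 0.18 to 0.42 with 1 array left out. The 20-week Cre arrays lay on slides 5 and 6, where the mean Cy3 signal of this probe was 8.41 and 9.08. The amplitude difference, Cre minus floxed, was -0.73 (95% interval -1.22 to -0.23) by probe 1 and -0.74 (-1.04 to -0.44) by probe 2. The joint test of the rhythm difference gave unadjusted p-values of 0.005 and 0.00018 and adjusted ones of 1 and 0.18, so neither was called. Probe 2 was called with the slide as a fixed block (adjusted p = 0.038), with the slide as a random block (0.044) and on the scanner software's log ratio (0.045).

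Cry2, the other cryptochrome, showed no called rhythm. Cry2 probe 1 ran from -0.84 to 0.28 with a median of -0.22 in Mop3fxfx livers and from -0.45 to 0.71 with a median of -0.21 in Cre livers, and the ranges overlapped. Its amplitude was 0.22 ± 0.13 in Mop3fxfx and 0.10 ± 0.13 in Cre livers (adjusted p = 0.72 and 0.97). Cry2 probe 2 was dim, with Cy5 well above background on 12 of 24 arrays, and had amplitudes of 0.03 ± 0.04 in both genotypes.

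**Figure D1:**
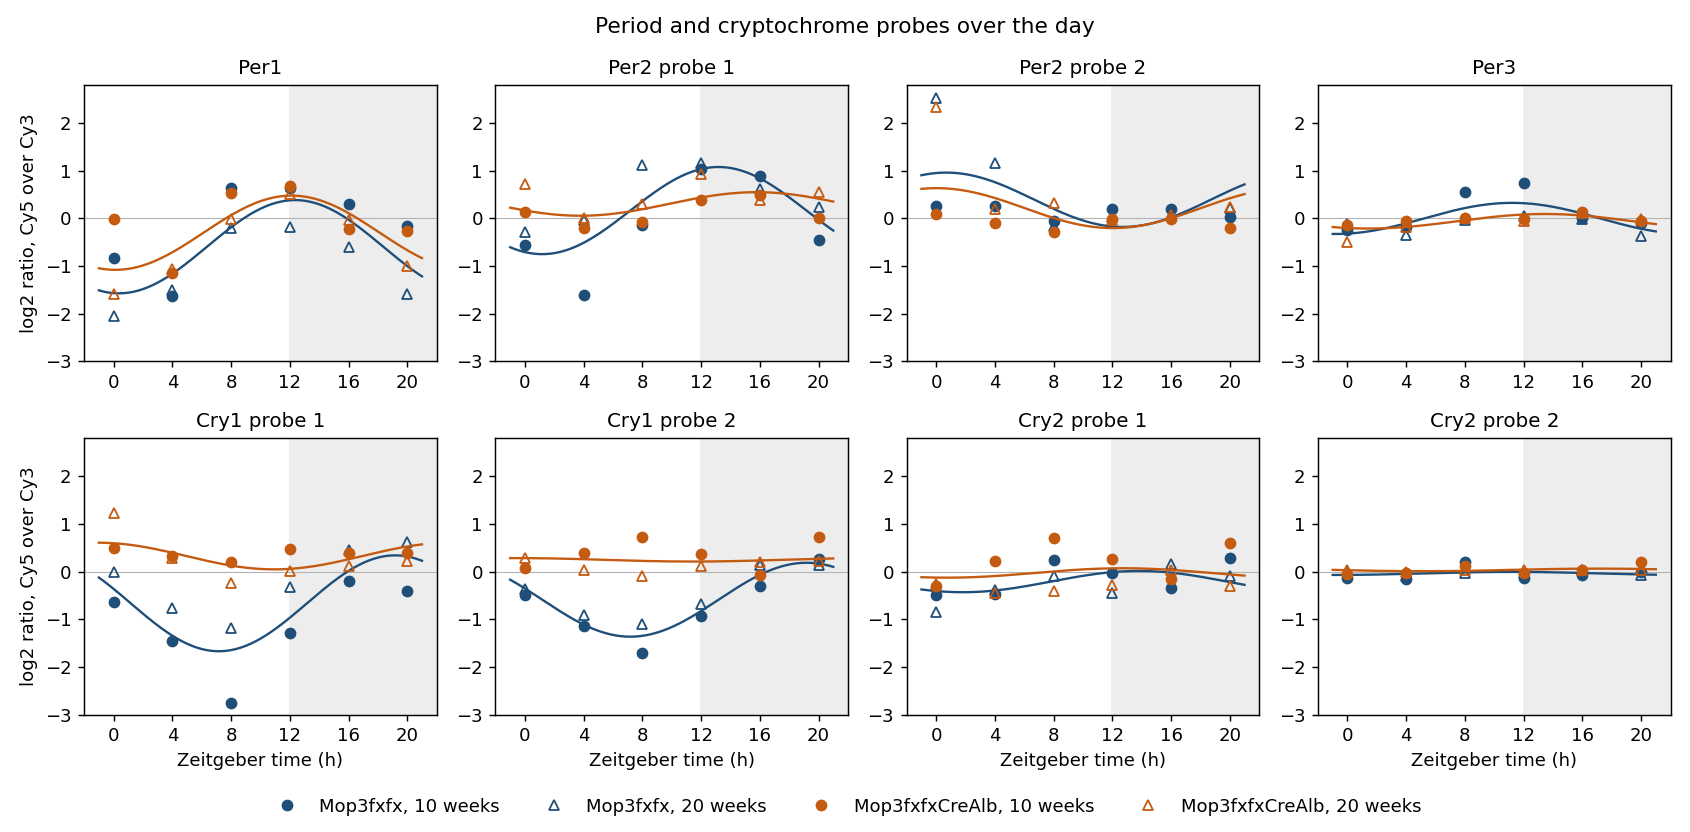
Log2 ratio of Cy5 over Cy3 against zeitgeber time in hours for the 8 probes, with 1 point per array, filled circles for 10 weeks and open triangles for 20 weeks, and the fitted 24 h cosine of each genotype as a line, with darkness shaded. Per1 is highest at ZT8 or ZT12 in both genotypes, while Cry1 probe 2 dips to -1.71 at ZT8 in Mop3fxfx livers and stays between -0.10 and 0.73 in Mop3fxfxCreAlb livers.

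Counted over the probes, 4 of 8 had a called rhythm in Mop3fxfx livers, against 1.4% of all probes. They were Per1, Per2 probe 1 and both Cry1 probes, and Per3 passed only at an unadjusted p under 0.05. With arrays scaled by their median in place of loess, or with a fit of 6 time means in place of the cosine, limma called 0 of the 8 in Mop3fxfx livers. Of all probes it called 34 and 106. Under the median scaling these 4 probes had amplitudes of 0.87 to 1.08 and adjusted p-values of 0.082 to 0.72. In Mop3fxfxCreAlb livers limma called 0 of 8 and 0% of all 27847 probes, and at an unadjusted p under 0.05 it was 1 of 8, Per1, and 8.65% of all probes. The lowest adjusted p of any probe in Cre livers was 0.083. Per1 stood at rank 110 of all probes by the p of its Cre rhythm, and 99.9% of all probes had a smaller Cre amplitude. The rhythm difference was called for 0 of 8 by limma, against 0.0287% of all probes, and 3 of 8 were under 0.05 unadjusted, against 2.89% of all. The median amplitude of the 8 probes was 0.67 in Mop3fxfx and 0.20 in Cre livers, and over all probes it was 0.10 in both.

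**Figure D2:**
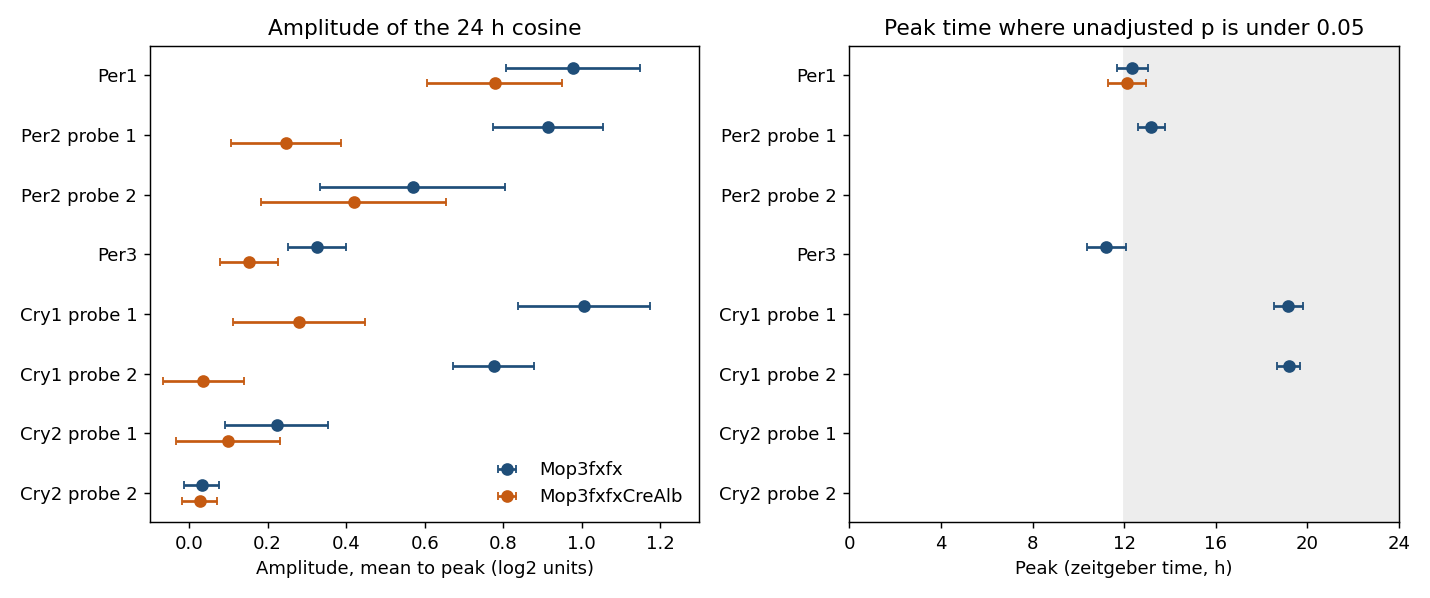
Amplitude of the fitted 24 h cosine in log2 units (left) and its peak in zeitgeber hours (right, only where the unadjusted p of the rhythm was under 0.05), as the fitted value ± SE over 12 arrays per genotype. In Cre livers a peak is drawn for Per1 alone, at ZT12.1 beside ZT12.4 in Mop3fxfx livers.

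The order of the peaks in Mop3fxfx livers, over both ages, was Per3 at ZT11.2, Per1 at ZT12.4, Per2 at ZT13.2 and Cry1 at ZT19.2, with the brighter probe standing for a gene. The order of the Period genes was not the same at each age. At 10 weeks alone Per3, Per1 and Per2 peaked at ZT11.0 ± 0.69, ZT13.3 ± 1.18 and ZT14.1 ± 0.57 h. At 20 weeks they peaked at ZT11.9 ± 2.15, ZT11.5 ± 0.28 and ZT11.6 ± 0.79 h. Over both ages, no 2 Period genes differed in peak beyond their errors, and the rhythm of Per3 itself was not called. The peak of Per2 minus that of Per3 was 1.96 h (95% interval -0.42 to 4.35). The peak of Per1 minus that of Per2 was -0.82 h (95% interval -2.53 to 0.89), and that of Per1 minus that of Per3 was 1.15 h (-0.99 to 3.29). Cry1 peaked after each Period gene, with a peak difference of -6.81 h for Per1 minus Cry1 (-8.79 to -4.82), -5.99 h for Per2 minus Cry1 (-7.94 to -4.04) and -7.95 h for Per3 minus Cry1 (-9.89 to -6.02). The amplitudes of Per1, Per2 and Cry1 did not differ beyond their errors, and that of Per1 exceeded that of Per3 by 0.65 (0.26 to 1.04). These intervals, over 10 pairs of genes in each genotype, were not adjusted for their number. In Cre livers the amplitude of Per1 exceeded those of Per2 (by 0.53, 0.07 to 0.99), Per3 (by 0.63, 0.24 to 1.02), Cry1 (by 0.50, 0.10 to 0.90) and Cry2 (by 0.68, 0.22 to 1.14). At 10 weeks alone the Cre amplitudes of Per1, Per2, Per3, Cry1 and Cry2 were 0.52 ± 0.31, 0.29 ± 0.18, 0.09 ± 0.09, 0.07 ± 0.17 and 0.20 ± 0.22. At 20 weeks they were 1.04 ± 0.07, 0.21 ± 0.15, 0.22 ± 0.09, 0.52 ± 0.15 and 0.19 ± 0.14. The 20-week Cre arrays lay on slides 5 and 6, whose Cy3 signal of Per1 differed. The differences from Per3 rest on a probe near background, with Cy5 well above it on 6 of 12 Cre arrays, and depend on the processing. On the scanner software's log ratio the amplitudes of Per1 and Per3 were 1.305 and 1.18 in Mop3fxfx livers and 1.02 and 0.88 in Cre livers.

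Of the 5 genes, the mean over the day was called different for Cry1 alone, and it was higher in Cre livers by both probes. Cry1 probe 1 had a mean of -0.66 in Mop3fxfx and 0.33 in Cre livers, a difference of 0.99 ± 0.17 or 1.99-fold (adjusted p = 0.00036, higher in 10 of 12 pairs of arrays of the same age and time). Cry1 probe 2 had means of -0.59 and 0.25, a difference of 0.84 ± 0.10 or 1.79-fold (adjusted p = 1.2e-05, higher in 12 of 12 pairs). Thus 2 of 8 probes were called, against 21.7% of all probes in either direction and 10.6% higher in Cre livers, a share close to the background. In the 5 pairs that shared a slide, all of 10 weeks, both Cry1 probes were higher in Cre livers in 5 of 5, by 0.79 to 2.98 and by 0.46 to 2.43.

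No other difference of the mean was called. Per1 differed by 0.29 ± 0.17 (95% interval -0.06 to 0.65, adjusted p = 0.24), Per2 probe 1 by 0.14 ± 0.14 (-0.16 to 0.43) and Per3 by -0.06 ± 0.07 (-0.21 to 0.09). Cry2 probe 1 differed by 0.18 ± 0.13 (-0.09 to 0.46) and was higher in Cre livers in 5 of 5 pairs on a shared slide. Per2 probe 2 differed by -0.17 ± 0.24 (-0.67 to 0.32) and was lower in Cre livers in 10 of 12 pairs, and in 5 of 5 on a shared slide, by -0.23 ± 0.07 there (SD). Cry2 probe 2 differed by 0.07 ± 0.04 (-0.02 to 0.17) and was higher in 10 of 12 pairs and in 4 of 5 on a shared slide. At 20 weeks alone the Per1 mean was higher in Cre livers by 0.48 ± 0.07 (adjusted p = 0.0024, 6 of 6 pairs). The same arrays differed by 0.19 in Cy5 and by -0.30 in Cy3.

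**Figure D3:**
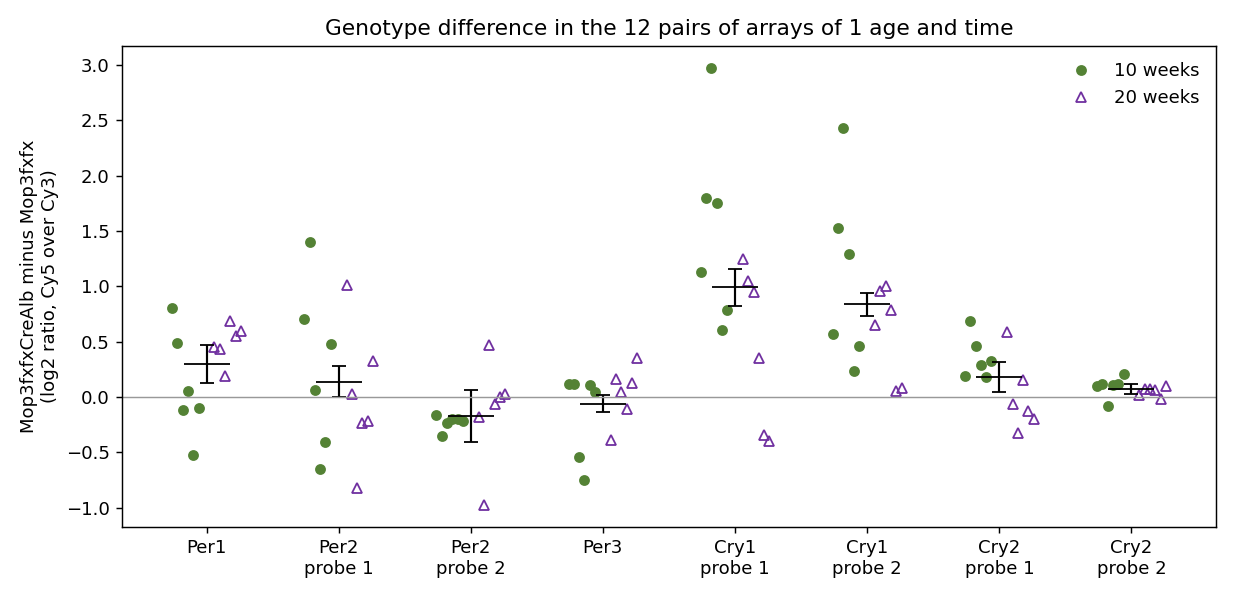
Difference in log2 ratio (Cy5 over Cy3), Mop3fxfxCreAlb minus Mop3fxfx, for each of the 12 pairs of arrays of 1 age and time, ordered by zeitgeber time within an age, with the fitted mean difference ± SE as a bar. Both Cry1 probes lie mostly above 0 with their highest pair at 10 weeks ZT8 (2.98 and 2.43). Cry2 probe 2 is above 0 in 10 of 12 pairs and Per1 in 9, both by smaller amounts, and Per2 probe 2 is below 0 in 10.

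The Cry1 difference was highest at ZT8 by probe 2. By probe 2 it was 0.61 at ZT0, 1.24 at ZT4, 1.72 at ZT8, 1.04 at ZT12, 0.14 at ZT16 and 0.27 at ZT20, each ± 0.28 (SE, 2 arrays per genotype). Only ZT8 was called (adjusted p = 0.013), as 1 of 8 probes against 0.37% of all probes at that time. Probe 1 gave 1.96 ± 0.42 at ZT8 (adjusted p = 0.083). With the pairs of the same age and time as a block, no single time was called, and ZT8 of probe 2 had an adjusted p of 0.088. Without the 10-week ZT8 array of either genotype the ZT8 difference of probe 2 was no longer called and no probe was called at any time. At the other 5 times limma called 0 of 8 probes, against 0.0934% of all probes at ZT0, 0.115% at ZT4, 0.427% at ZT12, 0.334% at ZT16 and 0.104% at ZT20. At an unadjusted p under 0.05 it was 3 of 8 at ZT0 (8.39% of all probes), 2 at ZT4 (6.17%), 2 at ZT8 (6.24%), 3 at ZT12 (8.79%), 0 at ZT16 (12.7%) and 0 at ZT20 (7.78%).

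Between ages, Per1 was lower at 20 weeks (20 minus 10 weeks, -0.65 ± 0.17, adjusted p = 0.0077) and Per2 probe 1 was higher (0.48 ± 0.14, adjusted p = 0.014), which is 2 of 8 against 30.5% of all probes. Every slide held arrays of 1 age, so age and slide cannot be fully told apart, and with the slide as a random block neither was called (-0.63, adjusted p = 0.073, and 0.46, adjusted p = 0.15). With arrays scaled by their median the Per1 difference was -0.25 (adjusted p = 0.31). In Mop3fxfx livers the mean Cy3 signal of Per1 was 9.43 ± 0.05 (SD, n = 6) at 10 weeks and 9.76 ± 0.16 at 20 weeks, and the mean Cy5 signal was 9.26 ± 0.91 and 8.74 ± 0.93. In Cre livers its Cy3 signal was 9.44 ± 0.08 and 9.46 ± 0.24, and its Cy5 signal 9.37 ± 0.71 and 8.93 ± 0.67. In Mop3fxfx livers the Cy3 signal of Per2 probe 1 was 9.66 ± 0.09 and 9.74 ± 0.08.

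The genotype difference of Cry1 probe 1 was smaller at 20 than at 10 weeks (-1.03 ± 0.25, adjusted p = 0.02, 1 of 8 against 9.05% of all probes), being 1.51 ± 0.17 at 10 and 0.47 ± 0.15 at 20 weeks. Probe 2 had the same sign (-0.50 ± 0.18, adjusted p = 0.078). The change of probe 1 with age was no longer called with the slide as a random block (-0.87, adjusted p = 0.066) or on the scanner software's log ratio (-0.89, adjusted p = 0.14). The Cy3 signal, read as the reference, was not the same on all slides for this gene. For Cry1 probe 1 it was 9.40 ± 0.14 (SD, n = 11) on the 3 slides with 10-week arrays of both genotypes, 8.40 ± 0.04 (n = 8) on slides 4 and 5 and 9.08 ± 0.04 (n = 4) on slide 6. Slides 4 and 5 held all 20-week Mop3fxfx arrays and the 20-week Cre arrays of ZT0 and ZT4, and slide 6 held the other 20-week Cre arrays. In Cy5 the genotype difference of Cry1 probe 1 was 1.44 at 10 and 0.96 at 20 weeks, and with Cy5 quantile normalised on its own its change with age was not called (-0.45, adjusted p = 0.32). In Cy3 the genotype difference of probe 1 was -0.06 at 10 and 0.49 at 20 weeks. The Cy3 signal of Cry1 probe 2 was 8.76 ± 0.08 (SD) on slides 1 to 3, 8.21 ± 0.17 on slides 4 and 5 and 8.60 ± 0.03 on slide 6. Its genotype difference was 1.16 at 10 and 0.90 at 20 weeks in Cy5, and 0.08 and 0.31 in Cy3. The part of the Cy3 shift in the Cry1 mean difference, the genotype by age result and the age differences was not tested beyond these values.

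**Figure D4:**
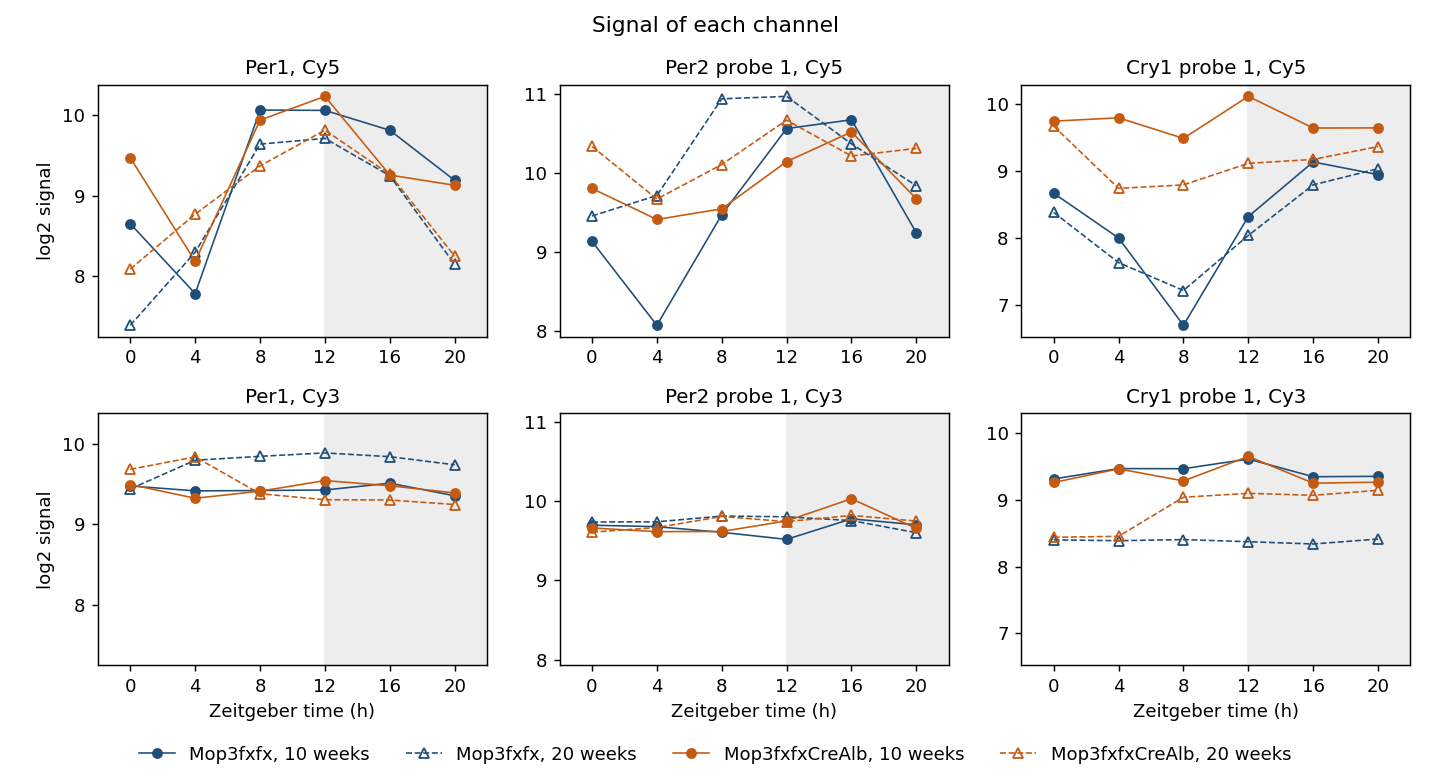
Log2 signal of each channel, scaled between arrays by average brightness, against zeitgeber time in hours for Per1, Per2 probe 1 and Cry1 probe 1, with 1 point per array. The cycles are in Cy5, and the Cy3 signal of Cry1 probe 1 lies near 8.40 on slides 4 and 5 and near 9.08 on slide 6.

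Among other genes, those whose log2 ratios most resembled each gene over the 24 arrays were found among 15438 named genes by Pearson's r, as a description, with arrays, slides and reference in common. For Per1 they were Klf13 (r = 0.87), a Krüppel-like factor, Amd2 (0.82) and Nudt3 (0.82), and for Per2 Cyp7a1 (0.80), the rate-limiting enzyme of bile acid synthesis, Ago3 (0.79) and Morc3 (0.78). For Per3 they were Ccne1 (0.81), which encodes cyclin E, Pitpnc1 (0.78) and Adcy6 (0.76). For Cry1 they included Desi2 (0.92) and Cdkn1a (0.88), the cell cycle inhibitor p21. For Cry2 they were Heatr3 (0.88), Atp6ap1 (0.84) and Yju2 (0.83). Klf13 had a fitted amplitude of 0.52 in both genotypes. Between the genes themselves, Per1 and Per3 correlated at r = 0.68 over the 24 arrays, and the 2 Cry1 probes at 0.88.

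Of the other transcription factors of the loop, 14 of 16 were tested, and 10 had a called rhythm in Mop3fxfx livers, against 1.4% of all probes. In Cre livers limma called 0, with 4 under 0.05 unadjusted, against 0% and 8.65% of all probes. The median amplitude of the list was 0.86 in Mop3fxfx and 0.24 in Cre livers. In Cre livers 2 means were higher and 6 lower, against 10.6% and 11.1% of all probes. The rhythm difference was called for 1, Arntl, against 0.0287% of all probes. Those with the smallest p in Cre livers were Nr1d2 (amplitude 1.11 ± 0.20, peak ZT10.6, adjusted p = 0.11), Dbp (0.81 ± 0.18, ZT10.3, 0.22), Nr1d1 (0.59 ± 0.18, ZT8.44, 0.45) and Hlf (0.32 ± 0.11, ZT12.0, 0.51). Among those with the smallest p of the rhythm difference after Arntl were Dbp (amplitude 2.18 in Mop3fxfx and 0.81 in Cre livers, adjusted p = 0.14) and Tef (1.12 and 0.27, 0.36). The REV-ERB genes had lower means in Cre livers, by -0.93 ± 0.18 for Nr1d1 (adjusted p = 0.0011) and -1.59 ± 0.20 for Nr1d2 (1.7e-05).

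Of 24 genes whose products modify, degrade or bind PER and CRY proteins, all 24 were tested. Rhythm was called for 1 in Mop3fxfx livers, Usp2, a deubiquitinase (amplitude 1.59 ± 0.21, peak ZT12.6, adjusted p = 0.00074), and in Cre livers limma called 0, with 1 under 0.05 unadjusted, the RNA helicase gene Ddx5 (0.27 ± 0.09, adjusted p = 0.48). Among all probes, rhythms were called for 1.4% in Mop3fxfx and 0% in Cre livers, with 8.65% under 0.05 unadjusted in Cre livers. The median amplitude of the list was 0.12 and 0.13, near that of all probes. In Cre livers 4 means were higher and 4 lower, against 10.6% and 11.1% of all probes. Csnk1d, a kinase of PER proteins, had a Cre amplitude of 0.22 ± 0.08 (adjusted p = 0.58), Usp7, a deubiquitinase of CRY proteins, 0.23 ± 0.10 (0.66) and the ligase scaffold Cul1 0.19 ± 0.07 (0.61). No rhythm difference was called by limma and 2 were under 0.05 unadjusted, against 0.0287% and 2.89% of all probes. They were Usp2 (p = 0.0058) and Fbxw11 (p = 0.04), a ligase subunit for PER proteins. The mean of Fbxw11 was higher in Cre livers by 0.63 ± 0.11 (adjusted p = 0.0016). Sfpq had amplitudes of 0.34 and 0.15 (rhythm difference, unadjusted p = 0.096).

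Of 23 genes that respond to temperature, glucocorticoids or feeding, 22 were tested, and Fkbp5, a glucocorticoid target, was called rhythmic in Mop3fxfx livers (amplitude 1.27 ± 0.26, peak ZT11.5, adjusted p = 0.038). Among all probes, 1.4% were called rhythmic in Mop3fxfx livers. In Cre livers limma called 0 of the list, with 5 under 0.05 unadjusted, against 0% and 8.65% of all probes. The median amplitude of the list was 0.29 in Mop3fxfx and 0.30 in Cre livers. Fkbp5 had a Cre amplitude of 0.72 ± 0.26 with a peak at ZT11.7 (adjusted p = 0.55), Cirbp, a cold-inducible RNA-binding protein gene, 0.51 ± 0.17 at ZT9.15 (0.49), and the chaperone genes Hspe1 and Hspa8 0.27 ± 0.08 at ZT22.7 (0.44) and 0.29 ± 0.10 at ZT16.7 (0.51). No rhythm difference was called by limma, and 1 was under 0.05 unadjusted, Hspe1 (p = 0.048), against 0.0287% and 2.89% of all probes. Sgk1 had amplitudes of 0.13 and 0.34, and its mean was higher in Cre livers by 0.62 ± 0.18 (adjusted p = 0.018). In this list 4 means were higher and 2 lower in Cre livers, against 10.6% and 11.1% of all probes.

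**Figure D5:**
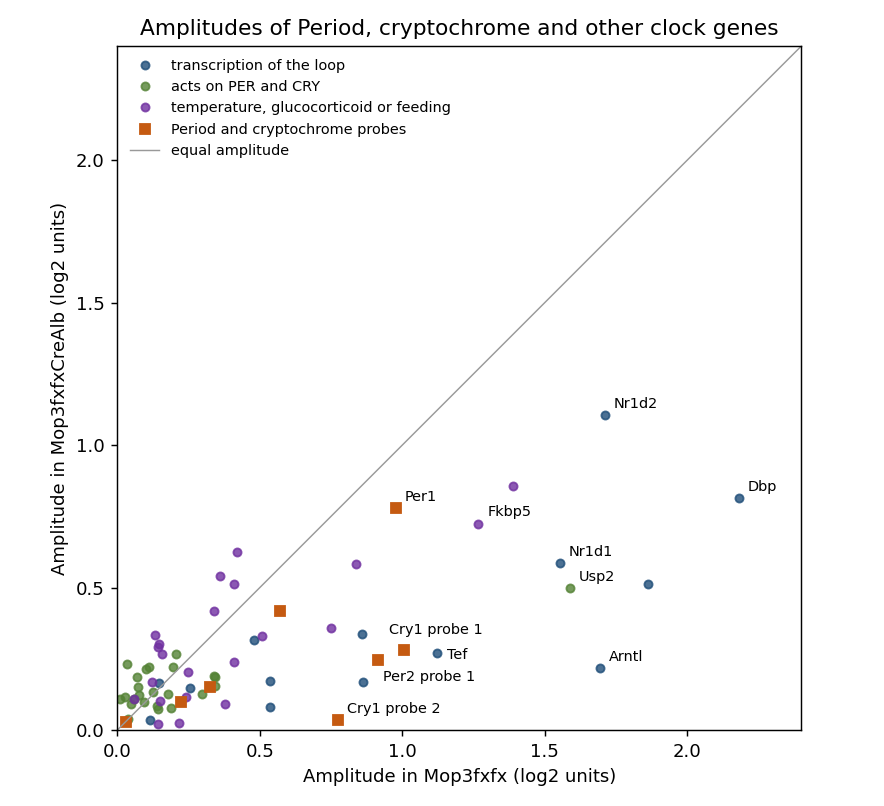
Amplitude of the fitted 24 h cosine in Mop3fxfx livers (x axis) and in Mop3fxfxCreAlb livers (y axis), both in log2 units, for the 8 Period and cryptochrome probes (squares) and the tested genes of the 3 lists (circles), with the line of equal amplitude. Per1 lies at 0.98 and 0.78, close to the line, while Cry1 probe 2 (0.78 and 0.04) and Arntl (1.69 and 0.22) lie far below it.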

How the data were processed

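Liver RNA of 24 pools was measured on 2-colour Agilent arrays of 1 design. The authors' scanner software was Agilent Feature Extraction 9.1.3.1, per the file headers. The deposited scanner files give the intensity of each spot and of its background in both dyes. Their log10 ratio (red over green, dye-normalised by that software, per the file headers) equals the deposited value table, with a largest difference of 0 and column medians of 0. Other columns of the deposited files are flags for saturation, outliers and signal above background.

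Intensities were corrected with normexp (offset 50) and log2 ratios normalised by loess within arrays with the 1639 control spots at weight 0. Outlier spots were set missing and spots of a probe averaged. Probes with Cy3 well above background on at least 4 arrays were kept, which under the ratio used here acts on the channel read as reference. R 4.3.3 with limma 3.58.1 fitted each genotype's mean and 24 h cosine and sine, with age added, to all arrays, with variances moderated across probes and p-values adjusted by Benjamini-Hochberg over the 27847 probes. Amplitude and peak errors came from the delta method, which is rough where an amplitude is small beside its error. Intervals with Cre amplitudes other than that of Per1 are therefore approximate. A fit of time means gave differences at single times. The fits were tested on simulated data. Median signal per array was 62.4 to 154.1 for Cy3 and 78.1 to 241.3 for Cy5, and precision is limited by how many arrays there are.

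No Period or cryptochrome spot was saturated or an outlier. Named are all their probes, Arntl, the 3 most correlated genes of each, and of 3 lists up to 4 genes by the smallest p of the Cre rhythm and 4 by that of the rhythm difference. One gene that this rule names is not reported here. The genes, lists and tests were chosen with earlier results of these data known. Cy5 was taken as the sample, against the labels. Channel levels by slide and age were scaled with limma's Aquantile, and channel amplitudes came from each channel quantile normalised on its own. Intervals are at 95%. The alternatives tried were other corrections, filters, blocks, weights, ages, curve shapes and channels, pairs of 1 age and time as a block, and each array left out.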

Additional observations from a re-analysis of the deposited data

Results flagged for a closer look

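The genotype difference of Cry1 probe 1 differed between the ages by a test of the difference itself, at -1.03 (20 minus 10 weeks, limma's interaction term). It was smaller at 20 weeks, where the Cy3 signal of this probe also differed between the slides that hold the genotypes. With the slide as a random block it was -0.87 and not called (adjusted p = 0.066).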

How the results depend on the processing

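Of the counts over the 8 probes (4 rhythms in Mop3fxfx, 0 in Mop3fxfxCreAlb, 0 rhythm differences, 2 mean differences, 1 single-time difference, 2 age differences, 1 genotype by age difference, and 8 with a smaller amplitude in Cre livers), these left their range, and the cause was not tested. Mop3fxfx rhythms were 0 with median centring, 6 time means, 10-week arrays alone or Cy3 alone, and 2 with 20-week arrays alone. Among all probes tested, 27830 to 27847, they were 34, 106, 10, 0 and 11 in that order. Mop3fxfxCreAlb rhythms were 1 with scan date as a block or 20-week arrays alone, and rhythm differences 1 with the scanner's log ratio or slide as a fixed or random block. Over all probes these rhythms were 14 and 1, and the rhythm differences 15, 19 and 27. Mean differences were 1 with median centring, 1 probe per gene or Cy3 alone, against 901 of 27847, 4553 of 18967 and 1165 of 27847 probes. Single-time differences are summed over the 6 times of day, so 1 probe can count more than once. They were 4 with the scanner's log ratio or array weights, 5 with slide as a fixed block or Cy5 alone, and 3 with slide as a random block. They were 6 with scan date as a block, and 0 with median centring, 1 probe per gene or Cy3 alone. Age differences were 4 with median centring, 0 with slide as a random block, and 5 with array weights, Cy5 alone or Cy3 alone. Of all 27847 probes they were 11546, 2532, 10636, 11301 and 15652 in that order. Genotype by age differences were 3 with median centring or without both 20-week ZT0 arrays, and 0 with the scanner's log ratio, slide as a random block, Cy5 alone or Cy3 alone. Of all 27847 probes they were 11725, 7200, 1254, 588, 153 and 93 in that order. Smaller amplitudes were 5 with 1 probe per gene, which leaves 5 probes, and 2 with Cy3 alone. In the main fit the median ratio of Cre over floxed amplitude was 0.46 for the 8 probes and 0.92 for all probes. A smaller Cre amplitude was thus common among all probes too. The 8 include Cry2 probe 2, whose amplitude differed by only -0.005 ± 0.06 (SE). Counts over all probes are not given for smaller amplitudes, or for single-time differences under these settings.

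Leaving out each array in turn gave 4 to 5 Mop3fxfx rhythms, 0 in Mop3fxfxCreAlb, 0 rhythm differences, 2 mean differences, 2 to 3 age differences, 1 to 2 genotype by age differences, 0 to 1 single-time differences and 7 to 8 smaller amplitudes. Over all probes it gave 247 to 412 Mop3fxfx rhythms, 0 to 19 in Mop3fxfxCreAlb and 2 to 14 rhythm differences. Mean differences were then 4696 to 6711, age differences 6945 to 9734 and genotype by age differences 1072 to 5894. The paired fit, with each pair of the same age and time as a block, was chosen after seeing the data. It gave 0 rhythm differences, 2 mean differences, 1 genotype by age difference and 0 single-time differences, and cannot give rhythms within a genotype or age differences. Over all probes the first 3 of these were 8, 6760 and 5125.

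Read as the labels give the dyes, signs turn by construction: the age differences of Per1 (0.65) and Per2 probe 1 (-0.48), the mean differences of Cry1 probe 1 (-0.99) and probe 2 (-0.84), the genotype by age difference of Cry1 probe 1 (1.03) and the ZT8 difference of Cry1 probe 2 (-1.72). Age differences reversed in Cy5 alone for Cry1 probe 1 (-0.40) and probe 2 (-0.45), and in Cy3 alone for Per1 (0.23), Per2 probe 2 (-0.28), Per3 (0.19), Cry1 probe 1 (-0.70) and probe 2 (-0.33), as did the genotype by age difference of Cry1 probe 1 in Cy3 alone (0.43). The Cry1 mean difference was counted here without the dyes of the labels, where its sign turns, and without Cy3 alone, read as the reference. It was called higher in Cre livers under 16 of 17 other settings by probe 1 (not with median centring) and 16 of 16 by probe 2. In Cy3 alone probe 2 was also called higher in Cre livers, while probe 1 was not called. Per3 and Cry2 probe 2 were near background on many arrays, which limits what their amplitudes can show.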
